A study of Mus musculus with 5 samples.

Results

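Glycolysis and the response to low oxygen were followed through 34 genes, chosen by symbol for their textbook roles, among 17638 genes in a table of CD31-positive cells from infarcted mouse hearts. All 34 were in the table and all 34 passed a filter on low values, a mean of at least 10 normalised reads over the libraries, which left 14339 genes to test. Polyadenylated RNA had been sequenced in 5 libraries. Of these, 2 came from a conditional knockout named Tbx1cko, which the series describes as endothelial, and 3 from mice labelled control. Every mouse had a C57BL/6 background, was 2 months old and had undergone myocardial infarction 5 days earlier, so neither group shows uninjured tissue. CD31 (Pecam1) is an endothelial surface protein that platelets and some leukocytes also carry. The labels used here give no Cre driver, no deleted exon and no alleles for the controls, and leave unsaid whether each library stands for 1 animal or a pool. The p-values therefore measure only the spread between these libraries, which may be technical.

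Glycolysis splits glucose into pyruvate in the cytosol and yields ATP without oxygen, and endothelial cells are known to draw most of their ATP from it. In normal oxygen, prolyl hydroxylases (the Egln genes) mark the HIF alpha subunits for degradation by the VHL ubiquitin ligase. In low oxygen the subunits persist, pair with ARNT, bind DNA at a short core with the letters RCGTG, and raise the transcription of glucose transporters, most glycolytic enzymes and mitophagy receptors. The HIF alpha subunits are controlled largely at the protein level, which these RNA data do not measure.

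The targeted gene was read first as a check of the labels. Tbx1 had 18.3 and 17.3 normalised reads in the Tbx1cko libraries, against 64.4, 72.7 and 69.6 in control replicates 1 to 3. Library depths were 17769729 and 16061666 reads in Tbx1cko and 14689782 to 18617284 in controls. The 8 endothelial markers summed to 144627.5 and 153900.5 normalised reads in Tbx1cko and to 156428.1 to 203150.4 in controls, with none at 0 in any library. Other cells were present too. The 10 macrophage and monocyte markers summed to 92190.0 and 94610.5 in Tbx1cko and to 62978.8 to 98230.1 in controls, and the 9 mural cell markers to 35903.9 and 38786.8 in Tbx1cko and to 42512.0 to 56913.0 in controls. The 6 neutrophil markers summed to 1327.8 and 1362.8 in Tbx1cko and to 590.5 to 958.2 in controls. The 6 platelet markers summed to 3702.3 and 3238.6 in Tbx1cko and to 1375.1 to 2385.3 in controls, most of it from Pf4. The sums of neutrophil and platelet markers thus lay higher in both Tbx1cko libraries than in every control, and those of endothelial and mural markers lower. Gene by gene, 5 of 6 neutrophil and 2 of 6 platelet markers were higher without overlap, against 14.2% of all genes. Lower without overlap were 8 of 9 mural and 4 of 8 endothelial markers, against 13.9% of all genes, while 1 endothelial marker was higher. The part of these cell types in the results below was not tested. In such bulk RNA, fewer cells of a type and less RNA per cell cannot be told apart. Control replicate 2 stood apart: across genes its log2 values had an r of 0.859 to 0.889 with any other library, against 0.98 to 0.988 among the other 4 libraries, and its deviation followed transcript GC content (Spearman rho 0.815 across genes). Fitted differences and tallies are therefore given with and without this library.

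None of the 34 genes passed the test of Tbx1cko against control. limma on log2(normalised count + 1), adjusted over all genes tested, called 0 members, with a smallest adjusted p of 0.762 shared by 13 of them, where it called 0.0% of all genes. At an unadjusted p under 0.05 there was 1 member, Eno2, or 2.94%, against a background of 1.74%. On the recovered reads edgeR called 0 members, and DESeq2 called 0 members, where 0.0279% of all genes were called. Without control replicate 2, limma called 0 members, with a smallest adjusted p of 0.498, against 0.0209% of all genes. An unadjusted p under 0.05 was then reached by 5 members (14.7%), against 7.46% of all genes. These were Bnip3, Pdk1, Pgk1 and Pgam1, higher in Tbx1cko, and Eno2, lower. DESeq2 without that library called 0 members, with a smallest adjusted p of 0.592 and no adjusted p for 2 of them, against 0.509% of all genes.

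Over the 5 libraries 13 members had a positive and 21 a negative log2 difference, Tbx1cko minus control, with a median of -0.08. The median of all genes tested was 0.03. Without control replicate 2 the split was 19 positive and 15 negative and the median 0.01. With a correction for GC content it was 22 positive and 12 negative, so the side on which most members lay depended on the processing. The groups did not overlap for 10 members. Egln3, Pgk1, Pdk1, Bnip3, Bnip3l and Ankrd37 were higher in both Tbx1cko libraries than in every control, which is 6 of 34 or 17.6%, against 14.2% of all genes. Epas1, Slc2a1, Slc2a3 and Eno2 were lower in both, 4 of 34 or 11.8%, against 13.9% of all genes. Over the 5 libraries both shares lay near their backgrounds. Without control replicate 2, Gpi1, Pfkm, Aldoc, Pgam1 and P4ha2 joined the higher side, 11 of 34 or 32.4%, against 19.7% of all genes, and Slc16a1, P4ha1 and Ndrg1 the lower side, 7 of 34 or 20.6%, against 17.8% of all genes. Known HIF target genes lay on both sides, among them Pdk1, Pgk1 and Bnip3 on the higher side and Slc2a1, Slc2a3 and Eno2 on the lower.

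**Figure D1:**
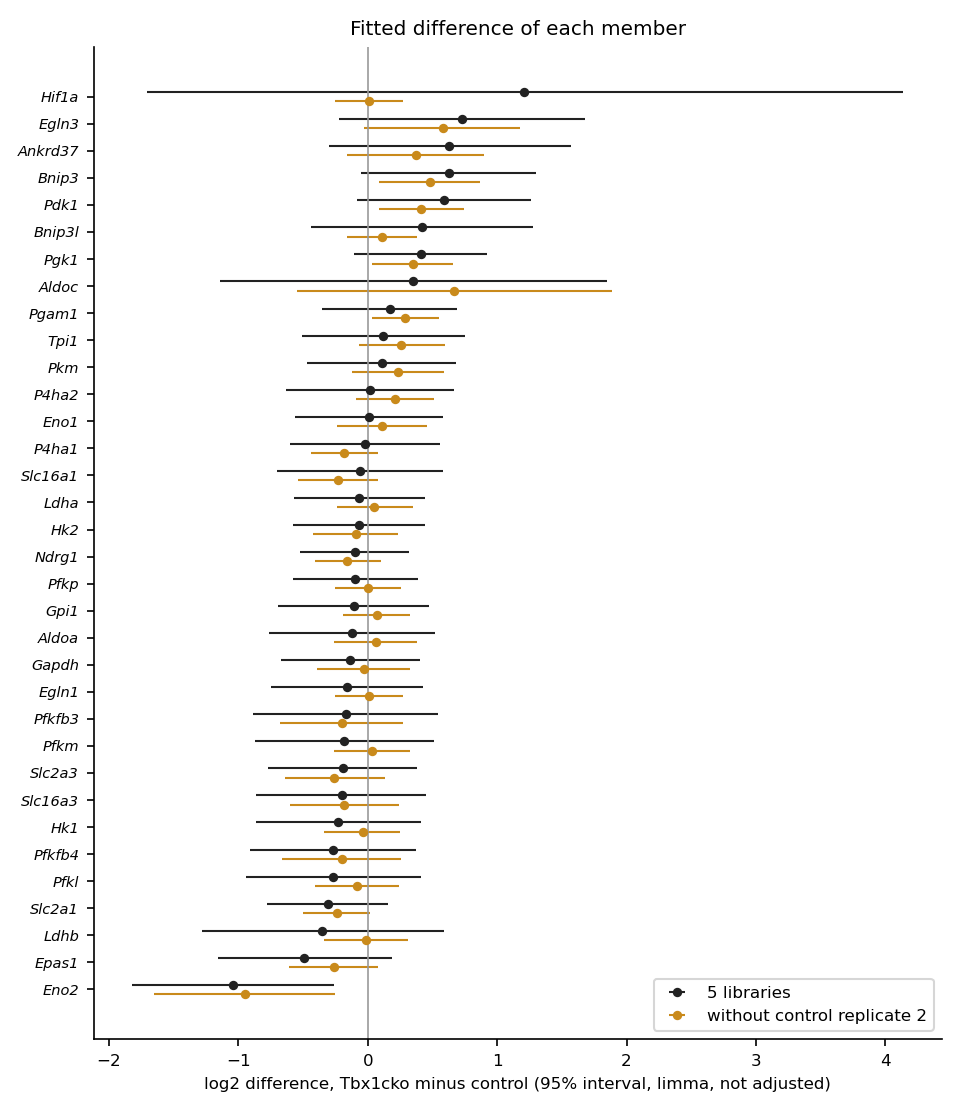
Fitted log2 difference of each of the 34 genes, Tbx1cko minus control, with its 95% limma interval not adjusted for multiple tests, over 5 libraries (black) and without control replicate 2 (orange). Over 5 libraries the interval of Eno2, from -1.82 to -0.26, is the only one that excludes 0, and the interval of Hif1a is the widest.

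The start-site sequences of 7 of the 10 genes whose groups did not overlap are shown because they let the known HIF core be read beside the values that follow. RefSeq windows of 300 bases (GRCm38.p6), from 250 bases before to 50 after the start, were found for 30 of the 34 members. Each is printed 5′ to 3′ on the strand of its gene, and capitals mark ACGTG or GCGTG on either strand. The palindrome CACGTG holds ACGTG on both strands and counts as a pair of matches. The windows are those of Bnip3 (chr7:138909457-138909756, minus strand), Pdk1 (chr2:71872974-71873273, plus), Pgk1 (chrX:106186850-106187149, plus), Egln3 (chr12:54203825-54204124, minus), Ankrd37 (chr8:45999801-46000100, minus), Slc2a1 (chr4:119108495-119108794, plus) and Eno2 (chr6:124769624-124769923, minus).
Bnip3: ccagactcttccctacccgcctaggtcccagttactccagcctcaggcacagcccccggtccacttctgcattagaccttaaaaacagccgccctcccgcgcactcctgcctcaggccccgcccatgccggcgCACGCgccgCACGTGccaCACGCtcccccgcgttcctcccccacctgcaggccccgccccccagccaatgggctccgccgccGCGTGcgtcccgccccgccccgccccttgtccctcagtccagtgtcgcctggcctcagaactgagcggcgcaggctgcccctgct
Pdk1: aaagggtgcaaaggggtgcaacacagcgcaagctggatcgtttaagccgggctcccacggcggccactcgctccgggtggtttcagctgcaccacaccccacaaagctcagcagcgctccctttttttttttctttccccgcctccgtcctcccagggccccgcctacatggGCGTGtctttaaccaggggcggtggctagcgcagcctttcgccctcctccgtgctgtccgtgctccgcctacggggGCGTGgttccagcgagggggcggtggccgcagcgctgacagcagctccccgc
Pgk1: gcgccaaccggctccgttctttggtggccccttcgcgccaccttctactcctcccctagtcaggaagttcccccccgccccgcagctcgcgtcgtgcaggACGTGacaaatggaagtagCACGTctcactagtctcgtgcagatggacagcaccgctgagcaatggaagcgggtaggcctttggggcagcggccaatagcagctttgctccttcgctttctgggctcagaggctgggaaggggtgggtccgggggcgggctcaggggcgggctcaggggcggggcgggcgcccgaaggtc
Egln3: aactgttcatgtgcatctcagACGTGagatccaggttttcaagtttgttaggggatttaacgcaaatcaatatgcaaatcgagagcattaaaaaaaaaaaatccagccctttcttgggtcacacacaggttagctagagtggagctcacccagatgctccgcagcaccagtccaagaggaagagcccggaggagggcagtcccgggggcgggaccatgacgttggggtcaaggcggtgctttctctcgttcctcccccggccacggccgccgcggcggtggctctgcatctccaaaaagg
Ankrd37: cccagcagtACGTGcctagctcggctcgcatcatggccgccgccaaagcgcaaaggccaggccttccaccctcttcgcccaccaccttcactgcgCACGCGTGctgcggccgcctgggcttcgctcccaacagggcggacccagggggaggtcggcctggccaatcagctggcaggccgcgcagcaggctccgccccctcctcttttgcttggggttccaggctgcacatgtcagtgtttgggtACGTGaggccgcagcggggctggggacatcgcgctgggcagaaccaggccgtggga
Slc2a1: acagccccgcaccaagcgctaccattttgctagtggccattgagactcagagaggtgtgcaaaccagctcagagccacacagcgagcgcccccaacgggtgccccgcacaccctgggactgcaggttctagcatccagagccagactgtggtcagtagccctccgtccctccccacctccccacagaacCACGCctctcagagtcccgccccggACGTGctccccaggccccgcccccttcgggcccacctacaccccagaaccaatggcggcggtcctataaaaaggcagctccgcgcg
Eno2: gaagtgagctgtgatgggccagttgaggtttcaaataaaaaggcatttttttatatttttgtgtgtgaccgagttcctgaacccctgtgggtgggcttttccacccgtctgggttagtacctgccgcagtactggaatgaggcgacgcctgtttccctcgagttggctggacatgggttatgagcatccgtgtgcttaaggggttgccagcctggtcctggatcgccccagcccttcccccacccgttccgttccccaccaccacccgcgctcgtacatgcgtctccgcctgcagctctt
Bnip3 held 5 matches, Ankrd37 held 4, Pdk1, Pgk1 and Slc2a1 held 2 each, Egln3 held 1, and Eno2 held 0 in this window. At least 1 match was present in 26 of the 30 members' windows (86.7%), against 43.8% of all 32851 windows. For a member with several windows, only the nearest to the start of its longest coding transcript was taken. The windows set against them include every window of a gene, so the units differ. The members' windows were also richer in CpG, with a median of 22 CpG dinucleotides against 7 for all windows. Among windows with at least 20 CpG, 17 of 19 members held a match, against 73.6% of all 8701 such windows. Slc2a1, lower in Tbx1cko without overlap, held as many matches as Pdk1 and Pgk1, which were higher. Bnip3 and Ankrd37, also higher, held more, Egln3, also higher, held fewer, and Eno2, lower, held 0. A relation between matches and direction was not tested. A match is a run of letters, not a measured binding site.

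Among the oxygen sensors, Hif1a and Epas1 encode the HIF-1 alpha and HIF-2 alpha subunits. Hif1a (chromosome 12, 73901375 to 73947530, plus strand) had 5505.0 and 5143.2 normalised reads in Tbx1cko, against 5115.1, 430.5 and 5464.0 in control replicates 1 to 3. The other 4 libraries lay within a narrow band and control replicate 2 lay far below it, at 0.0814 of the mean of the other controls. The fitted log2 difference was 1.21 (SE 1.17, 95% interval -1.71 to 4.14) with that library and 0.01 (interval -0.25 to 0.27) without it. The transcript of Hif1a had a GC content of 41.3%, the lowest of the members. Of 841 tested genes within 1 percentage point of it, 85 (10.1%) were as far or farther below the other libraries in control replicate 2, and their median deviation was -1.87 against -3.62 for Hif1a.

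Epas1 (chromosome 17, 86753700 to 86833410, plus strand) had 21844.5 and 25076.3 normalised reads in Tbx1cko, against 30107.3, 44725.1 and 26211.7 in controls. Both Tbx1cko libraries lay below all 3 controls, control replicate 3 lying only just above them. The log2 difference was -0.49 (SE 0.269, limma adjusted p = 0.762) and -0.26 without control replicate 2. Per kilobase of transcript, Epas1 stood above Hif1a in every library. Hif1a made up 22.7% and 19.3% of the pair's reads per kilobase in Tbx1cko, against 16.6%, 1.11% and 19.6% in controls, and the lowest of these was again control replicate 2.

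Egln1 (PHD2) and Egln3 (PHD3) are prolyl hydroxylases that mark HIF alpha, and both are known HIF target genes themselves. Egln3 had 321.9 and 341.4 normalised reads in Tbx1cko, against 154.8, 161.9 and 317.1 in controls. Control replicate 3 sat just under the lower Tbx1cko library, while control replicates 1 and 2 were far lower. The log2 difference was 0.73 (SE 0.380, limma adjusted p = 0.762), 0.58 without control replicate 2 and 0.79 with GC correction. Egln1 averaged 1830 ± 132 normalised reads in Tbx1cko and 2072.5 ± 445 in controls (SD, n = 2 and 3), a log2 difference of -0.16, or 0.01 when control replicate 2 was left out.

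**Figure D2:**
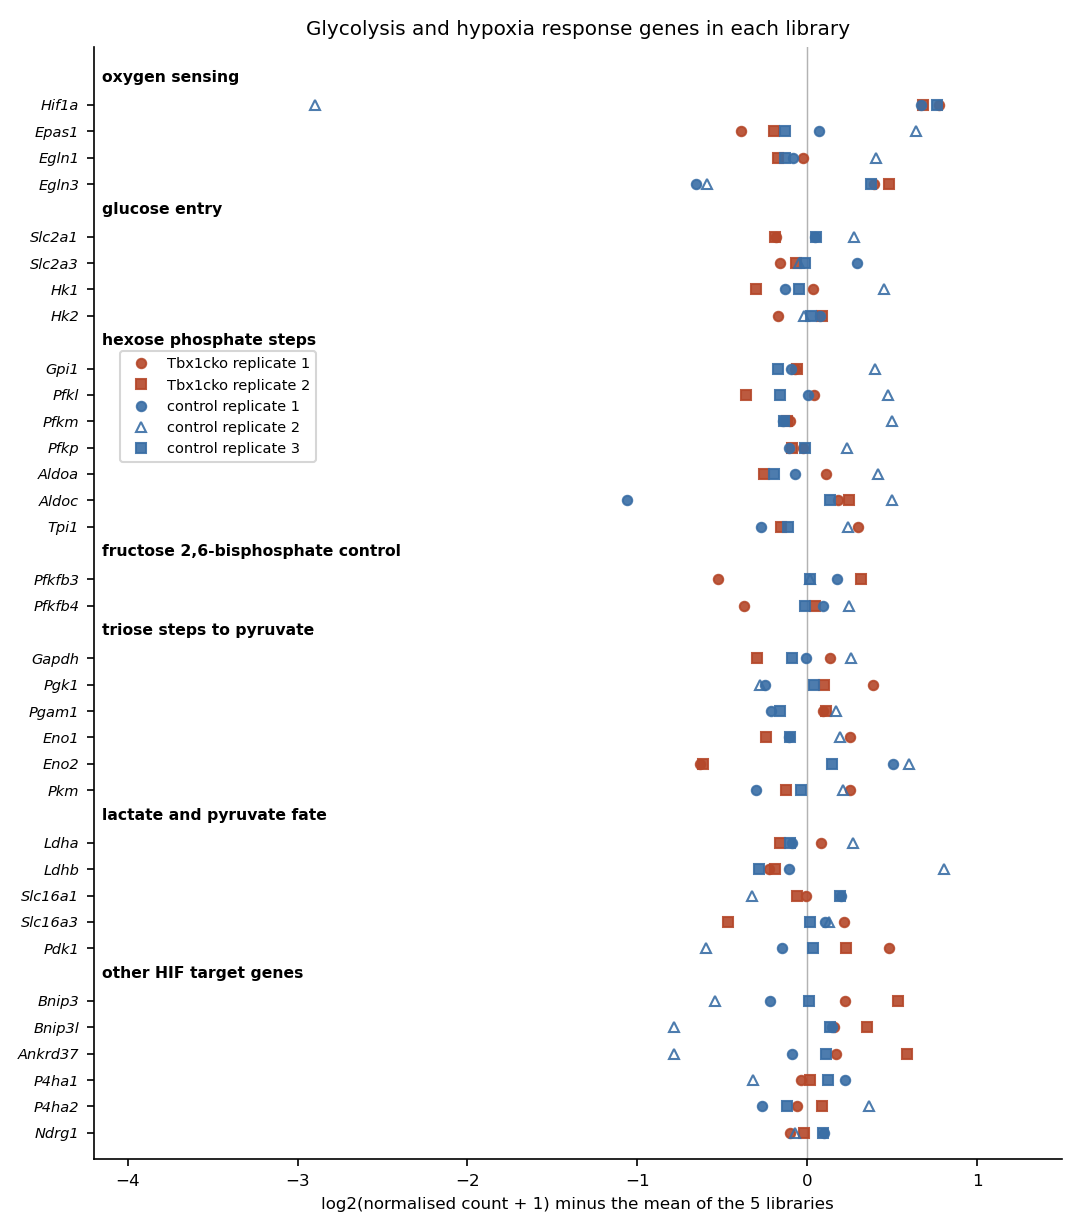
Level of each of the 34 genes in each library, as log2(normalised count + 1) minus the mean of the 5 libraries, grouped by role, with Tbx1cko in red and control in blue. Control replicate 2 (open triangle) is the most distant library for Hif1a, Bnip3l and Ldhb, among others. With that library set aside, 11 genes are higher and 7 lower in Tbx1cko without overlap, against 19.7% and 17.8% of all genes tested. In the remaining rows the groups mix.

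Glucose entry is set by the transporters GLUT1 (Slc2a1) and GLUT3 (Slc2a3) and by the hexokinases Hk1 and Hk2, which trap glucose as its 6-phosphate. All 4 had negative log2 differences, of which those of Hk1 and Hk2 turned positive with GC correction, with a median of -0.21 (-0.16 without control replicate 2), and 0 were called by limma. Slc2a1 (chromosome 4, 119108711 to 119137983, plus strand) had 1191.7 and 1182.1 normalised reads in Tbx1cko, against 1396.6, 1632.7 and 1400.1 in controls. Both Tbx1cko values were nearly equal and lay below all 3 controls, and the log2 difference was -0.31 (SE 0.186, limma adjusted p = 0.762), -0.24 without control replicate 2 and -0.13 with GC correction. Slc2a3 averaged 248.7 ± 11.5 normalised reads in Tbx1cko and 285.8 ± 38.4 in controls, a log2 difference of -0.19 (-0.26 without control replicate 2). The hexokinases overlapped between groups: Hk1 averaged 3032.7 ± 496 in Tbx1cko and 3580.7 ± 825 in controls, and Hk2 505.7 ± 64.5 in Tbx1cko and 528.1 ± 18.2 in controls. The differences of Hk1 (-0.23) and Hk2 (-0.07) were -0.04 and -0.09 without control replicate 2 and turned to 0.03 and 0.02 with GC correction.

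In the next steps glucose 6-phosphate isomerase (Gpi1), phosphofructokinase (Pfkl, Pfkm, Pfkp), aldolase (Aldoa, Aldoc) and triose phosphate isomerase (Tpi1) turn the hexose into triose phosphates. Of these 7 genes 2 had positive and 5 negative differences, with a median of -0.11, and those of Gpi1, Pfkl, Pfkm and Aldoa turned positive with GC correction. The tally without control replicate 2 was 6 positive and 1 negative, with a median of 0.06. The groups overlapped for each of the 7 over the 5 libraries, and for all but Gpi1, Pfkm and Aldoc without that library. Pfkl, the liver-type subunit, had 2066.1 and 1567.3 normalised reads in Tbx1cko, against 2015.7, 2792.6 and 1801.9 in controls. Control replicate 2 was the highest and Tbx1cko replicate 2 the lowest, and the log2 difference of -0.27 was -0.08 without control replicate 2. The proportions of the 3 phosphofructokinase subunits overlapped between groups. Per kilobase, Pfkl gave 44.5% and 38.7% of the 3 in Tbx1cko, against 45.2%, 45.6% and 41.2% in controls, Pfkp gave 38.9% and 42.6% in Tbx1cko, against 38.1%, 35.3% and 41.6% in controls, and Pfkm the rest.

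The other members of this segment differed between groups by little relative to the spread of the 3 controls. Gpi1 averaged 5038.9 ± 23.7 normalised reads in Tbx1cko and 5517.4 ± 1250 in controls, a log2 difference of -0.11 (0.07 without control replicate 2). Pfkm averaged 590.3 ± 4.66 in Tbx1cko and 685.1 ± 187 in controls, a difference of -0.18 (0.03 without that library). Pfkp averaged 1961.3 ± 62.8 in Tbx1cko and 2106.9 ± 267 in controls, a difference of -0.10 (0.00 without it). Control replicate 2 was the highest library for all 3 of these genes. Aldoa, the main aldolase here, averaged 7973.6 ± 1420 in Tbx1cko and 8767.7 ± 2050 in controls, a difference of -0.12 (0.06 without control replicate 2). Tpi1 averaged 2830.2 ± 623 in Tbx1cko and 2600.3 ± 485 in controls, a difference of 0.12 (0.26 without that library). Aldoc, the brain-type aldolase, averaged 15.0 ± 0.461 in Tbx1cko and 12.7 ± 6.49 in controls, on 5 to 20 reads per library, and its difference of 0.35 (0.67 without control replicate 2) cannot be set apart from counting error.

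Pfkfb3 and Pfkfb4 encode bifunctional enzymes that make and break fructose 2,6-bisphosphate, the main activator of phosphofructokinase, and PFKFB3 is known to drive glycolysis in sprouting endothelial cells. Pfkfb3 had 2804.2 and 5023.0 normalised reads in Tbx1cko, against 4564.8, 4078.5 and 4079.9 in controls. The Tbx1cko pair spanned all the controls, so the log2 difference of -0.17 was smaller than the gap between the Tbx1cko libraries. It was -0.20 without control replicate 2, -0.59 without Tbx1cko replicate 2 and 0.25 without Tbx1cko replicate 1. Pfkfb4 had 140.8 and 188.5 in Tbx1cko, against 194.3, 216.2 and 180.7 in controls. Its groups overlapped only through control replicate 3, and the log2 difference was -0.27 (-0.20 without control replicate 2).

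From triose phosphate to pyruvate, Gapdh, Pgk1, Pgam1, Eno1, Eno2 and Pkm encode the dehydrogenase, the first ATP-yielding kinase, the mutase, the enolases and pyruvate kinase. Of these 6 genes 4 had positive and 2 negative differences, with a median of 0.06 (0.17 without control replicate 2), and that of Gapdh turned positive with GC correction. Pgk1 (chromosome X, 106187100 to 106203699, plus strand) had 4232.8 and 3455.7 normalised reads in Tbx1cko, against 2716.3, 2664.7 and 3328.1 in controls. Tbx1cko replicate 2 and control replicate 3 lay close together across the gap between the groups, and the log2 difference was 0.41 (SE 0.205, limma adjusted p = 0.762), or 0.35 without control replicate 2 and 0.37 with GC correction. Pgk1 has 3 named pseudogene copies in the annotation, so its count is uncertain.

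Eno2, the neuron-type enolase, was the member with the smallest p. It lies on chromosome 6, 124760053 to 124769673, minus strand, and had 29.3 and 29.6 normalised reads in Tbx1cko, against 65.5, 69.9 and 50.8 in controls. All 3 controls lay well above both Tbx1cko libraries, on 32 and 29 reads in Tbx1cko and 58, 76 and 54 in controls. By exact Poisson 95% intervals, which cover counting error only, the Tbx1cko values reached up to 41.3 and 42.4 normalised reads and the lowest control down to 38.2, so these intervals overlapped. The log2 difference was -1.04 (SE 0.313, 95% interval -1.82 to -0.26), with a limma p of 0.0183 before adjustment and 0.762 after it. It was -0.95 without control replicate 2 and -0.84 with GC correction, and negative under every alternative run. Of the 9 mural cell markers 8 were also lower in Tbx1cko without overlap, and their part in this value was not tested.

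The bulk of the enolase RNA came from Eno1, which averaged 6533.9 ± 1570 normalised reads in Tbx1cko and 6419.2 ± 785 in controls, a log2 difference of 0.01 (0.11 without control replicate 2). Eno2 made up 0.277% and 0.394% of the enolase reads per kilobase in Tbx1cko, against 0.793%, 0.687% and 0.612% in controls. Gapdh, the highest member per kilobase, averaged 17945.6 ± 3710 normalised reads in Tbx1cko and 19602.3 ± 2530 in controls, a difference of -0.14 (-0.03 without control replicate 2). Pgam1 averaged 1317.4 ± 13.4 in Tbx1cko and 1179.2 ± 175 in controls, and its difference was 0.17 over the 5 libraries and 0.29 without control replicate 2. Pkm averaged 15412.9 ± 2800 in Tbx1cko and 14339.2 ± 2520 in controls, a difference of 0.11 (0.23 without control replicate 2) with overlapping groups.

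The fate of pyruvate is set by lactate dehydrogenase (Ldha, which favours lactate, and Ldhb), the lactate carriers MCT1 (Slc16a1) and MCT4 (Slc16a3), and Pdk1, a kinase that shuts pyruvate dehydrogenase. Of these 5 genes 1 had a positive difference and 4 a negative difference, with a median of -0.07, which became 2 positive and 3 negative with a median of -0.01 without control replicate 2, and those of Ldha and Slc16a3 turned positive with GC correction. Ldha, a classic HIF-1 target, had 9511.9 and 8057.8 normalised reads in Tbx1cko, against 8472.0, 10861.2 and 8383.8 in controls. The groups overlapped, and the log2 difference was -0.07 (95% interval -0.57 to 0.44) and 0.05 (interval -0.24 to 0.35) without control replicate 2. Pdk1 (chromosome 2, 71873224 to 71903858, plus strand) had 795.7 and 667.5 in Tbx1cko, against 513.0, 376.2 and 583.4 in controls. Both Tbx1cko libraries were above all 3 controls, with a log2 difference of 0.59 (SE 0.268, limma adjusted p = 0.762), 0.41 without control replicate 2 and 0.35 with GC correction.

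Over the 5 libraries the groups overlapped for the remaining genes of this step. Ldhb averaged 437.5 ± 8.2 normalised reads in Tbx1cko and 589.3 ± 256 in controls, a log2 difference of -0.35, or -0.01 when control replicate 2 was left out. Slc16a1 averaged 413.6 ± 11.3 in Tbx1cko and 436.4 ± 84.8 in controls, a difference of -0.06, or -0.23 with non-overlapping groups when that library was left out. Slc16a3 averaged 927.3 ± 305 in Tbx1cko and 1039.8 ± 42.7 in controls, a difference of -0.20 (-0.18 without control replicate 2), and here the spread lay within the Tbx1cko pair.

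Bnip3 and Bnip3l (NIX) are mitophagy receptors, Ankrd37 is an ankyrin repeat protein gene, P4ha1 and P4ha2 encode collagen prolyl hydroxylase subunits, and Ndrg1 is a stress-response gene, all known as HIF targets. Of these 6 genes 4 had positive and 2 negative differences, with a median of 0.22 (0.16 without control replicate 2), and GC correction turned the signs of Bnip3, Bnip3l and Ndrg1. Bnip3 (chromosome 7, 138890836 to 138909519, minus strand) had 319.2 and 396.4 normalised reads in Tbx1cko, against 235.0, 187.6 and 275.7 in controls. The groups did not overlap, and the log2 difference was 0.63 (SE 0.269, limma adjusted p = 0.762) and 0.48 without control replicate 2. With GC correction over the 5 libraries it was -0.06, and with the correction but without control replicate 2 it was 0.38, so its sign depended on how that library was treated. The transcript of Bnip3 had a GC content of 41.6%, at which most genes were low in control replicate 2.

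Bnip3l (chromosome 14, 66985239 to 67008877, minus strand) had 2297.5 and 2629.2 normalised reads in Tbx1cko, against 2280.1, 1196.7 and 2269.5 in controls. Tbx1cko replicate 1 was level with control replicates 1 and 3, and the fitted log2 difference of 0.42 (SE 0.343) was 0.11 without control replicate 2 and -0.25 with GC correction. Ankrd37 (chromosome 8, 45996902 to 46005707, minus strand) had 104.3 and 139.6 in Tbx1cko, against 87.0, 53.3 and 99.7 in controls. Its lower Tbx1cko library lay just above control replicate 3, and the log2 difference was 0.63 (SE 0.373), 0.37 without control replicate 2 and 0.69 with GC correction. Ankrd37 overlaps Lrp2bp and Ufsp2 on the opposite strand, so without a stated strand setting its reads are uncertain.

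The groups overlapped for the collagen hydroxylases and Ndrg1 over the 5 libraries, and for none of these 3 without control replicate 2. P4ha1 averaged 1813.4 ± 51.3 normalised reads in Tbx1cko and 1858.6 ± 350 in controls, a difference of -0.02 (-0.18 without that library). P4ha2 averaged 797.0 ± 56.1 in Tbx1cko and 797.2 ± 190 in controls, a difference of 0.02 (0.21 without it). Ndrg1 averaged 4013.4 ± 157 in Tbx1cko and 4311.3 ± 282 in controls, a log2 difference of -0.10 (-0.16 without it).

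**Figure D3:**
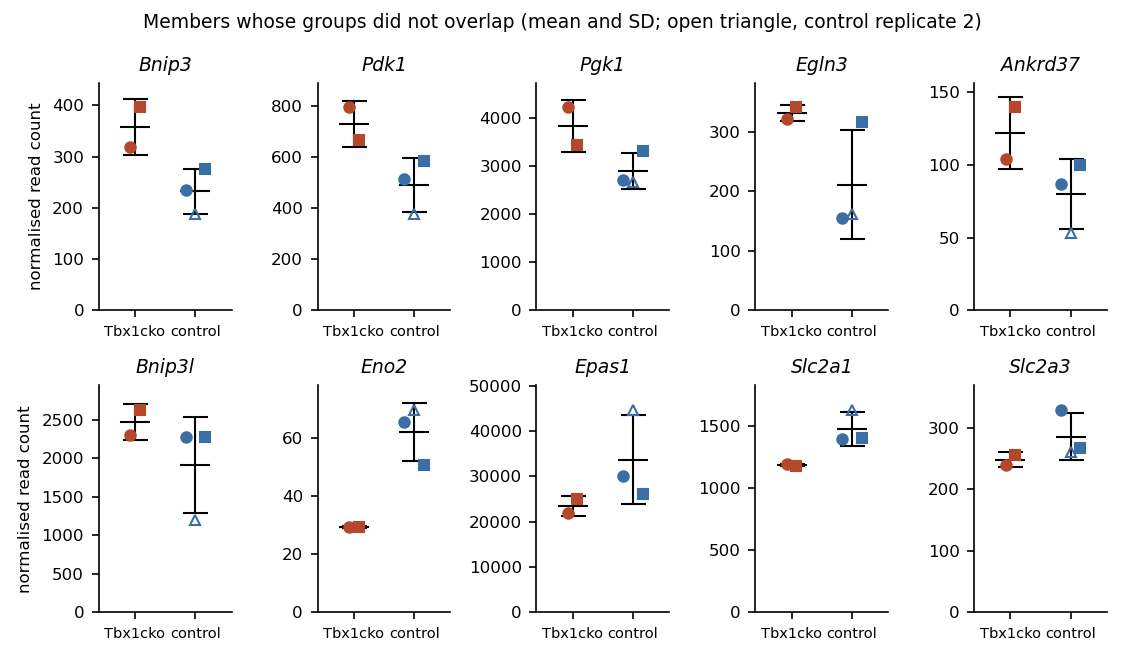
Normalised read counts of the 10 genes whose groups did not overlap, Tbx1cko (red, 2 libraries) beside control (blue, 3 libraries), with the mean and SD of each group. In Bnip3l and Ankrd37 the open triangle, control replicate 2, is the lowest point, and in Epas1, Eno2 and Slc2a1 it is the highest.

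The members differed among themselves far more than the groups did. Per kilobase of the longest coding transcript, averaged over the libraries, Gapdh stood highest at 13337.7 normalised reads, followed by Pkm at 6072.7, Aldoa at 5455.2, Epas1 at 5364.9 and Ldha at 4990.3. The range of Gapdh over libraries, 10789.2 to 15818.2, lay above that of every other member, while the ranges of Pkm, Aldoa, Epas1 and Ldha overlapped. The lowest were Slc2a3 at 68.4, Pfkfb4 at 52.8, Eno2 at 17.5 and Aldoc at 4.89.

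Within each of 12 pairs of isozymes or related genes the log2 ratio of the first to the second was compared between groups with an exact permutation test. With 2 and 3 libraries the smallest 2-sided p this test can give is 0.2, so no pair could pass. Over the 5 libraries Eno2 to Eno1 was the only pair whose ratios did not overlap, with a difference of -1.05 (exact permutation p = 0.2, 0.873 after Benjamini-Hochberg adjustment over the 12). Its difference was -1.06 without control replicate 2. When that library was left out, P4ha2 to P4ha1 did not overlap either. Its log2 ratios were -1.23 and -1.14 in Tbx1cko, against -1.7 and -1.45 in control replicates 1 and 3. The difference of P4ha2 to P4ha1 was then 0.39, against 0.04 with that library. Without that library the difference of Hif1a to Epas1 was 0.27, against 1.70 with it, that of Egln3 to Egln1 0.57, against 0.89, and that of Ldhb to Ldha -0.07, against -0.28. The ratio of Egln3 to Egln1 per kilobase was 0.226 and 0.265 in Tbx1cko, against 0.113, 0.0845 and 0.24 in controls, the highest control overlapping with Tbx1cko. The share of Hk2 in the hexokinase pair was 9.54% and 13.8% in Tbx1cko, against 12.3%, 8.04% and 11.4% in controls, and that of Ldhb in the lactate dehydrogenase pair 5.94% and 7.11% in Tbx1cko, against 7.17%, 10.2% and 6.45% in controls. In both of these the groups overlapped.

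**Figure D4:**
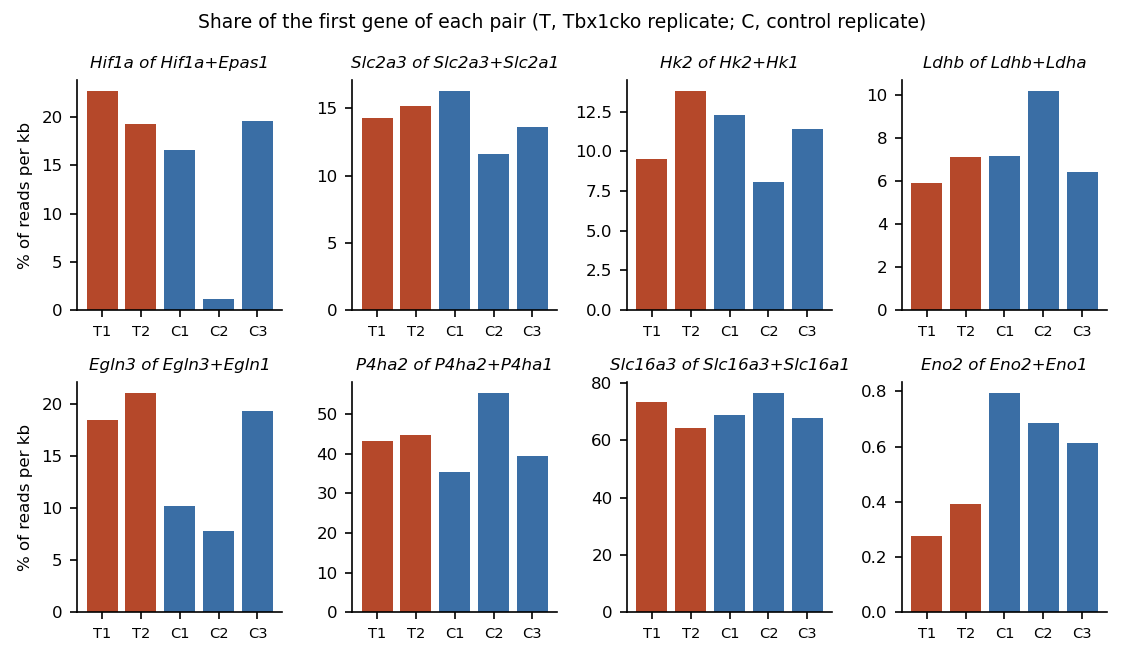
Share of the first gene in the reads per kilobase of each of 8 pairs, in percent, for the Tbx1cko replicates (red, T) and the control replicates (blue, C). Eno2 of the enolase pair separates the groups, at 0.277% and 0.394% in Tbx1cko and at least 0.612% in controls, and Hif1a of the HIF alpha pair is 1.11% in control replicate 2.

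Control replicate 2 set much of the spread among the members. Of the 9 members with a transcript GC content under 50%, 8 were below the mean of the other 4 libraries in that library, with a median log2 deviation of -0.40. Of the 25 members with 50% or more, 4 were below it, with a median of 0.34. The tested genes with a known GC content showed the same split, 5747 of 6818 below at a median of -0.86 and 1064 of 6953 below at a median of 0.53. Egln3 and Ankrd37, at 51.4% and 51.1% GC, were low in that library (-0.74 and -0.98), unlike most tested genes with 50% or more. What made that library differ was not tested.

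**Figure D5:**
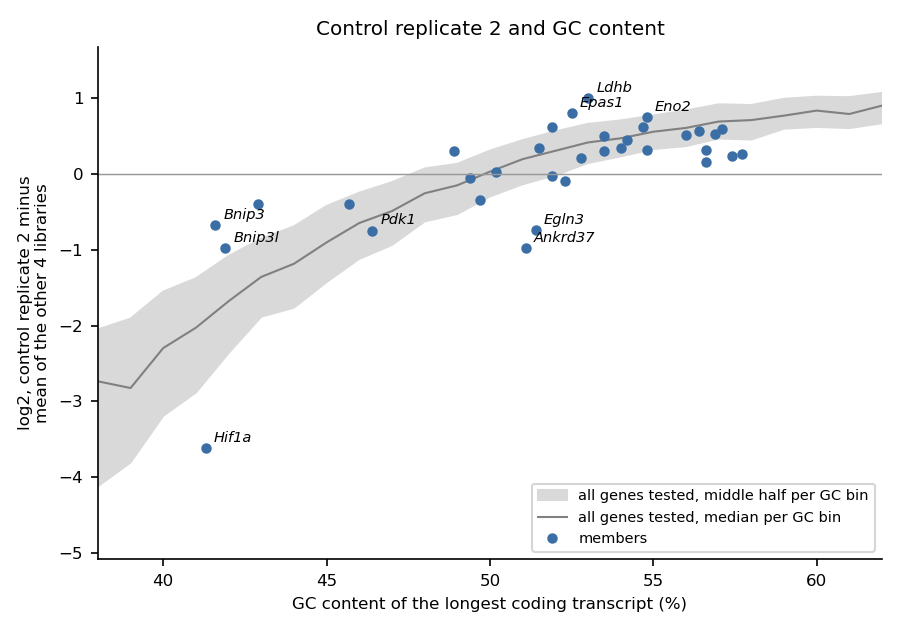
Log2 level in control replicate 2 minus the mean of the other 4 libraries, against the GC content of the longest coding transcript in percent. Points are the 34 genes. Grey marks the median and interquartile band per GC bin of the tested genes with a known GC content. Hif1a lies at -3.62, below the band, and Epas1 (0.80) lies above it.

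Genes around the members were read from 5 lists. Of the HIF partners and regulators 6 of 7 were tested, 4 positive and 2 negative, with a median log2 difference of 0.09 (3 positive, 3 negative and 0.04 without control replicate 2) and 0 called by limma. Cited2, which competes with HIF for its coactivator, had 711.6 and 718.4 normalised reads in Tbx1cko, against 977.4, 929.0 and 763.1 in controls, a log2 difference of -0.31 (-0.27 without control replicate 2). Hif3a, a further alpha subunit, held only 7.3 and 26.5 in Tbx1cko and 6.8, 5.5 and 12.2 in controls, a difference of 0.79 (0.58 without that library). Egln2 (PHD1) averaged 916.0 ± 42.0 in Tbx1cko and 1128.6 ± 356 in controls, and its difference of -0.26 was -0.01 without control replicate 2.

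The 20 further HIF target genes were all tested, 10 positive and 10 negative with or without control replicate 2, with medians of 0.00 and -0.01 and 0 called. Hmox1, heme oxygenase 1, had 12620.7 and 10424.1 normalised reads in Tbx1cko, against 5103.8, 9833.7 and 8555.9 in controls, a log2 difference of 0.60, or 0.80 without control replicate 2 (limma adjusted p = 0.33). The transcriptional repressor gene Bhlhe40 had 8985.1 and 11354.5 in Tbx1cko, against 13649.2, 12316.3 and 12107.1 in controls, a difference of -0.33 (-0.35 without that library). Higd1a, a mitochondrial protein gene, had 326.5 and 348.5 in Tbx1cko, against 274.6, 184.9 and 282.3 in controls, a difference of 0.47 (0.28 without that library). Hmox1 and Higd1a lay higher and Bhlhe40 lower without overlap. Of the 20 genes in the list, 3 were higher and 3 lower without overlap, against 14.2% and 13.9% of all genes. Without control replicate 2 these were 4 and 4, against 19.7% and 17.8% of all genes. The list lay on both sides, as the members did.

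Of 13 further isozymes 9 were in the table and tested, 6 positive and 3 negative with or without control replicate 2, with medians of 0.10 and 0.08 and 0 called by limma. Hk3, a hexokinase of myeloid cells, had 468.3 and 597.2 normalised reads in Tbx1cko, against 261.0, 390.9 and 317.1 in controls. The log2 difference was 0.73 (SE 0.270, limma adjusted p = 0.762). Without control replicate 2 it was 0.88, which DESeq2 called (adjusted p = 0.0153) and limma did not (adjusted p = 0.214). Over the 5 libraries all 6 neutrophil markers were also higher in Tbx1cko, 5 without overlap, and 9 of 10 macrophage and monocyte markers were, 3 without overlap. Of all genes, 14.2% were higher without overlap. The median log2 difference of the neutrophil markers was 1.91, or 1.26 without control replicate 2. That of the macrophage and monocyte markers was 0.39, or 0.12 without that library. The part of these cells in the value of Hk3 was not tested.

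Slc2a4 (GLUT4), the insulin-responsive transporter of muscle and fat, had 77.7 and 56.0 normalised reads in Tbx1cko, against 141.2, 264.0 and 114.8 in controls. The groups did not overlap, and the log2 difference was -1.29 (SE 0.435, limma adjusted p = 0.762), or -0.94 without control replicate 2. The 10 cardiomyocyte markers summed to 11055.8 and 10041.9 in Tbx1cko and to 8936.4, 14870.7 and 7981.0 in controls, so both Tbx1cko sums lay above control replicates 1 and 3 and below control replicate 2. The mural cell markers, 8 of 9 lower in Tbx1cko without overlap, had a median log2 difference of -0.96 (-0.67 without control replicate 2). The part of either cell type in the value of Slc2a4 was not tested. Pfkfb2, a further fructose 2,6-bisphosphate enzyme, averaged 106.5 ± 10.9 in Tbx1cko and 82.1 ± 11.7 in controls, a difference of 0.38 (0.28 without that library).

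The 12 genes of pyruvate entry into mitochondria were 8 positive and 4 negative, with a median of 0.17, and 7 positive and 5 negative with a median of 0.03 without control replicate 2, and 0 were called. Pdk4, which like Pdk1 shuts pyruvate dehydrogenase, had 273.5 and 432.1 normalised reads in Tbx1cko, against 231.6, 205.1 and 292.6 in controls, a log2 difference of 0.51 (0.40 without control replicate 2) with overlapping groups. Pdk2 averaged 309.1 ± 28.4 in Tbx1cko and 430.4 ± 139 in controls, a difference of -0.43 (-0.19 without that library). Pdhb, a subunit of pyruvate dehydrogenase, averaged 1237.4 ± 15.5 in Tbx1cko and 1046.5 ± 112 in controls, a difference of 0.25 (0.17 without it).

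The 7 genes of the pentose phosphate pathway, which branches from glucose 6-phosphate and yields NADPH and ribose, were 4 positive and 3 negative, with a median of 0.07. Without control replicate 2 all 7 were positive, with a median of 0.15, and 0 were called by limma with or without it. G6pdx, the first and rate-limiting enzyme, had 771.0 and 820.4 normalised reads in Tbx1cko, against 513.0, 620.9 and 567.4 in controls. All 3 controls lay below both Tbx1cko libraries, and the log2 difference was 0.49 (limma adjusted p = 0.762), or 0.56 without control replicate 2. Pgd, the next dehydrogenase, had 2287.4 and 2140.0 in Tbx1cko, against 1458.7, 2144.1 and 1738.9 in controls, a difference of 0.33 (0.47 without that library). Rpe averaged 640.3 ± 20.6 in Tbx1cko and 452.8 ± 223 in controls, and its difference of 0.66 was 0.15 without control replicate 2.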

How the data were processed

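Sample titles gave the group and number of the 2 Tbx1cko and 3 control libraries of polyadenylated RNA. TRIzol LS extraction and TruSeq library preparation are stated per the labels' protocols. The submitters' processing notes name GRCm38 (mm10), R 3.5.1, DESeq2 1.20.0, DESeq and STAR 2.5.2b. Which counter, annotation and strand setting were used is not given in the sources used here.

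The deposited table gives a signal for each gene, reads divided by a size factor of the library, named by symbol. Dividing by the smallest step of each library gave whole reads for 100% of values, within 0.01. Each gene had at least 12 reads over the libraries.

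limma 3.58.1 (R 4.3.3), 2-sided, with a trended prior and genotype as the only term, was fitted to log2(normalised count + 1) for genes with a mean of at least 10. p-values were adjusted by Benjamini-Hochberg over all 14339 genes, with a threshold of 0.05. A pseudocount of 1 understates the differences of low genes. Where no tool is named, an adjusted p is limma's. edgeR 4.0.16 and DESeq2 1.42.0 on the recovered reads were alternatives, as were other pseudocounts, filters and scalings, a replicate block, a GC correction (loess, span 0.3) and leaving out each library. No pair of libraries agreed within sampling noise. The smallest chi-square per degree of freedom was 14.16 within a group, between control replicates 1 and 3. Between groups it was 12.98, for control replicate 3 and Tbx1cko replicate 1.

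The longest coding transcript of each symbol in GENCODE M21 (GRCm38) gave GC content, length and position, for 96% of genes tested. Promoter windows came from RefSeq. The members and lists were chosen with earlier results of these data known. Values in every library are given for the 12 members with the smallest unadjusted p and for Hif1a, Epas1, Slc2a1, Pfkfb3, Ldha and Bnip3. Other members are given as group means with SD, and up to 3 genes with the smallest p are named from each pathway list. The fits were also run on simulated counts, drawn gene by gene with no GC-linked shift in any library. Those runs therefore do not cover the way control replicate 2 stands apart.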

Additional observations from a re-analysis of the deposited data

How the results depend on the processing

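The count of members called was 0 under every alternative run. The count of all genes called, 0 in limma over 5 libraries, was 4 with DESeq2, 3 with the replicate block, 1 with edgeR without control replicate 2 and 73 with DESeq2 without it. Leaving out each library in turn gave 0 to 3. The same-numbered deviations correlated at -0.0556 and -0.0461. The deviations of the 2 Tbx1cko libraries mirror each other, so these values cannot settle whether the replicate numbers pair the samples. The block called 0 members, which does not bear on that question.

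Members higher in Tbx1cko without overlap, 6 in all, became 10 with GC correction without control replicate 2, and 6 to 11 when a library was left out. Members lower, 4 in all, became 7 and 5 to 12. All genes did likewise, since fewer libraries separate more readily by construction. With GC correction without control replicate 2, 18.6% of genes were higher and 18.3% lower without overlap, against 29.4% and 20.6% of members. When a library was left out, 18.4% to 28.4% of genes were higher and 17.8% to 25.3% lower, against 17.6% to 32.4% and 14.7% to 35.3% of members.

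The log2 difference of 10 members, Ankrd37, Egln3, Eno2, Epas1, Pdk1, Pfkfb4, Pgam1, Pgk1, Slc2a1 and Slc2a3, kept its sign under every alternative run. GC correction turned the sign of Egln1 (0.08), Hk1 (0.03), Hk2 (0.02), Gpi1 (0.06), Pfkl (0.01), Pfkm (0.02), Aldoa (0.15), Gapdh (0.13), Ldha (0.00), Slc16a3 (0.06), Bnip3 (-0.06), Bnip3l (-0.25) and Ndrg1 (0.01). GC correction without control replicate 2 turned Hif1a (-0.09), Egln1 (0.06), Hk1 (0.01), Gpi1 (0.10), Pfkm (0.07), Aldoa (0.13), Gapdh (0.03), Ldha (0.05) and Ldhb (0.01). Quantile normalisation turned Gapdh (0.04), Ldha (0.04) and P4ha2 (-0.06), and moved the median of all genes tested to -0.06 from 0.03. edgeR turned P4ha2 (-0.01), as did DESeq2 (-0.00). The replicate block turned Eno1 (-0.04), Slc16a1 (0.03), P4ha1 (0.04) and P4ha2 (-0.03). Without control replicate 2, edgeR turned Hif1a (-0.00), Gpi1 (0.06), Pfkm (0.02), Aldoa (0.05) and Ldha (0.05), and DESeq2 turned Egln1 (0.01), Gpi1 (0.07), Pfkm (0.03), Pfkp (0.00), Aldoa (0.07) and Ldha (0.06). Apart from the GC correction's own construction, the cause was not tested.

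Leaving out each library in turn gave log2 differences that spanned 0 for Egln1 (-0.26 to 0.01), Hk2 (-0.20 to 0.06), Gpi1 (-0.22 to 0.07), Pfkm (-0.29 to 0.03), Pfkp (-0.17 to 0.00), Aldoa (-0.31 to 0.06), Aldoc (-0.10 to 0.67), Tpi1 (-0.11 to 0.35), Pfkfb3 (-0.59 to 0.25), Gapdh (-0.35 to 0.08), Eno1 (-0.24 to 0.26), Pkm (-0.08 to 0.29), Ldha (-0.19 to 0.05), Slc16a1 (-0.23 to 0.03), Slc16a3 (-0.55 to 0.14), P4ha1 (-0.18 to 0.09) and P4ha2 (-0.11 to 0.21). The same held for the log2 ratios Slc2a3/Slc2a1 (-0.02 to 0.26), Hk2/Hk1 (-0.14 to 0.46), Pfkm/Pfkl (-0.11 to 0.28), Pfkfb4/Pfkfb3 (-0.31 to 0.12), Slc16a3/Slc16a1 (-0.46 to 0.17) and P4ha2/P4ha1 (-0.20 to 0.39). Where 1 Tbx1cko library was left, it is assumed to vary like the controls.

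With 2 and 3 libraries, 1 of which stands apart, 0 calls do not show that the groups were alike. Aldoc and Eno2 rest on few reads and were dropped by the filter at 50. Of the 34 members, 14 overlap a gene on the opposite strand and 6 have a named pseudogene, so their counts are uncertain.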

Other observations

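Hif1a was not the only gene of these pathways with a very low value in control replicate 2. The iron-uptake receptor gene Tfrc had 846.0 and 811.2 normalised reads in Tbx1cko, against 731.0, 53.3 and 879.8 in control replicates 1 to 3. Plod2, a collagen lysyl hydroxylase, had 649.4 and 1094.5 in Tbx1cko, against 552.5, 103.0 and 714.2 in controls. Dld, the dihydrolipoamide dehydrogenase of the pyruvate dehydrogenase complex, had 1372.8 and 1350.3 in Tbx1cko, against 1275.7, 217.1 and 1245.8 in controls. The oxidoreductase gene Ero1l had 1110.3 and 1078.2 in Tbx1cko, against 952.5, 299.9 and 1217.6 in controls. The naming rule does not take these 4 genes, which were picked once their values were known. Their transcripts had a GC content of 39.8%, 43.0%, 40.6% and 41.6%, near that of Hif1a, and without that library their log2 differences were 0.05, 0.42, 0.11 and 0.02.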
